A study of Mus musculus with 63 samples.

Results

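Heart RNA of WSB mice was compared with heart RNA of 5 classical laboratory strains, which the labels name 129, AJ, B6, NOD and NZO. WSB is a wild-derived inbred strain of the house mouse subspecies Mus musculus domesticus. The classical strains are laboratory lines of largely domesticus ancestry, and the reference genome is that of B6. The comparison took the 8 WSB libraries against the 40 libraries of the classical strains (8 each), out of 63 in the series, and the strains labelled Cast and PWK were left out. It covered all genes, of which 15952 of the 19220 in the count table passed a filter on low counts. All mice of all 6 strains were on the same high-fat, high-sugar diet (45% fat), so the comparison holds on that diet only. No label gives sex or age. Each library was taken as 1 mouse, although no label says that the replicates are separate animals, so p-values may measure technical spread only. WSB is 1 inbred strain, so the spread between its mice says nothing of wild-derived mice in general.

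A strain that descends from recently caught wild mice carries other alleles than lines bred for generations in the laboratory. Such alleles can change how much RNA a gene gives, how many copies of a gene the genome holds, and which sequence its RNA has. WSB mice are known as lean, NZO mice as obese, and NOD mice for autoimmune diabetes. The heart burns mostly fatty acids and depends on a dense supply of mitochondria, on calcium cycling and on the sarcomere, the contractile unit of muscle.

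Total counts ran from 24.8 M to 31.0 M in WSB libraries and from 23.1 M to 42.9 M in classical libraries. Levels below are CPM, counts scaled to library size after TMM, edgeR's correction for library composition. A gene's value given with no unit is its log2 fold change, WSB over the classical mean, from edgeR's quasi-likelihood fit, the number after ± is the standard error (SE), and p-values are adjusted over all tested genes. The heart muscle markers Myh6, Tnnt2, Tnni3, Actc1, Myl2 and Pln were above 1 CPM in all 8 WSB and all 40 classical libraries. Xist, the RNA of the inactive X chromosome, was above 1 CPM in 4 of 8 WSB libraries and in 31 of 40 classical libraries, so the strains may differ in their mix of the sexes. Genes of the mitochondrial genome took 19.6% to 25.2% of the counts in WSB libraries and 18.5% to 31.1% in classical libraries.

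WSB replicate 1 stood apart from the other WSB libraries. Its log2 CPM correlated with theirs at 0.933 to 0.944, while the other 7 correlated with each other at 0.982 to 0.987. Genes whose longest annotated transcript lies in the shortest quartile (up to 2097 bases) had a median log2 CPM 0.48 above the rest of the strain in that library, and genes of the longest quartile (from 4697 bases) a median of -0.32. The other 7 WSB libraries lay between -0.06 and 0.05 for the shortest quartile and between -0.04 and 0.04 for the longest. Its level of Myh6, which encodes the main cardiac myosin heavy chain, was 13620.0 CPM, while the other 7 WSB libraries lay between 30996 and 35740 CPM. RNA length or quality as the reason was not tested. Results are therefore given with all 8 WSB libraries, and for many genes and lists also without replicate 1. Of 218 named genes 22 lost the call without it, and not all of these are marked below. A value with no second figure is thus not shown to hold without replicate 1.

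**Figure D1:**
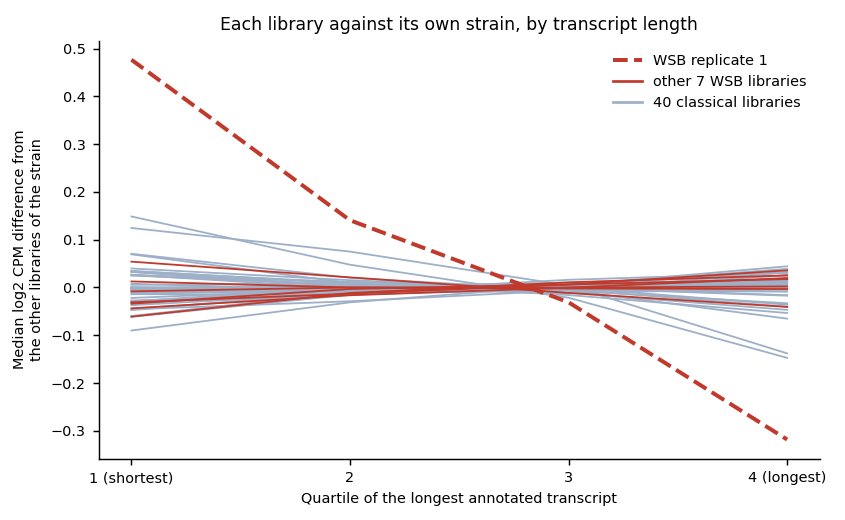
Median difference in log2 CPM of each library from the other libraries of its strain (vertical axis), for genes in 4 quartiles of the length of their longest annotated transcript (horizontal axis), with 1 line per library. WSB replicate 1 (dashed red) runs from 0.48 in the shortest quartile to -0.32 in the longest, the other 7 WSB libraries (red) stay between -0.06 and 0.05 at both ends, and the 40 classical libraries (blue) between -0.15 and 0.15.

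With all 8 WSB libraries somewhat more genes were higher than lower in WSB hearts, and most differences were small. At a threshold of 0.05 on the adjusted p of edgeR's test, 3868 genes (24.2% of those tested) were higher in WSB than the mean of the 5 classical strains and 3480 (21.8%) were lower, 7348 (46.1%) in either direction. The median size of the called differences was 0.39 on the log2 scale, and 533 of the higher and 664 of the lower genes differed at least 2-fold. Without WSB replicate 1, 3733 genes (23.3%) were higher and 3762 (23.5%) lower. Of the 7348 calls, 5970 kept their direction, 1378 were not called and 0 turned round. The median over all tested genes was 0.01 with replicate 1 and -0.00 without it. Counts called in each gene list below stand beside these shares of 24.2% higher and 21.8% lower over all tested genes.

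Stricter views gave far fewer genes. In 112 genes (0.702%) every WSB library was above every classical library, and in 189 genes (1.18%) every WSB library was below every classical library. Without WSB replicate 1 these counts were 202 and 245. When WSB was set against the spread among the 5 classical strain means (limma, 1 strain mean against 5), 47 genes (0.295%) were higher and 95 (0.596%) lower, and all 142 were also called by edgeR. That test takes WSB to vary as the classical strains do.

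Cwc22 (ENSMUSG00000027014, chr2:77881159-77946375, GRCm38) had the largest increase among genes with no overlap whose mean log2 CPM was 1 or more. It encodes a splicing factor that brings EIF4A3 to the exon junction complex, the protein mark left on spliced RNA. The lowest, median and highest WSB libraries had 626, 695 and 1126 CPM, against 9.05, 11.2 and 13.6 CPM in classical libraries. The groups were far apart, and WSB was 65.1-fold higher, with a log2 fold change of 6.02 ± 0.05 (edgeR, adjusted p = 2.84e-56). How many copies of Cwc22 the WSB genome holds was not tested. In the reference annotation 7 further genes hold near-identical transcripts of Cwc22, and none of them is in the count table used here. Of 27 tested genes of the exon junction complex and splicing, Cwc22 included, 6 were higher and 3 lower, and 9 and 5 without WSB replicate 1. The complex's core helicase gene Eif4a3 was at -0.24 and Magohb, which encodes a partner subunit, at -0.41, both lower. Rbm8a, which encodes the subunit that pairs with the Magoh proteins, was at 0.33 with replicate 1 and 0.15 without it.

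Ano10, Cit and Wscd1 were also higher in WSB with no overlap and passed the strain-mean test. Ano10, an anoctamin of the family of calcium-activated membrane proteins (chr9:122175879-122294374), had a lowest, median and highest level of 162, 188 and 302 CPM in WSB libraries, against 17.4, 25.5 and 33.5 CPM in classical libraries. The log2 change in WSB was 3.004 ± 0.05 (adjusted p = 1.63e-42). Cit encodes citron kinase, which acts at the end of cell division, and was at 13.7, 16.5 and 33.7 CPM in WSB libraries and 1.39, 2.54 and 4.39 CPM in classical libraries. The log2 difference came to 2.80, with the groups apart. Wscd1 had a log2 fold change of 1.72.

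A further 9 genes with no overlap in the higher direction had log2 fold changes between 1.17 and 3.04. Abca4, an ABC transporter best known from photoreceptors, was at 20.5, 23.9 and 28.6 CPM in WSB libraries and 0.358, 4.27 and 11.6 CPM in classical libraries, and its classical levels spread widely. Acsm5 encodes a mitochondrial synthetase that activates medium-chain fatty acids. It had 12.7, 20.9 and 29.6 CPM in WSB libraries, against 1.39, 5.65 and 10.5 CPM in classical libraries, a log2 fold change of 2.03 ± 0.13 (adjusted p = 1.09e-18). Ces1d, a carboxylesterase that hydrolyses triglyceride and drug esters, was at 187, 262 and 290.2 CPM in WSB libraries and 58.8, 114 and 171 CPM in classical libraries. It was lowest in WSB replicate 1, and even there it lay above the highest classical library. The log2 fold change was 1.21 ± 0.07 (adjusted p = 4.03e-20). The cytochrome P450 gene Cyp2d22 was at 1.37, Tyw3, for a tRNA-modifying enzyme, at 1.60, Ctnnd1, for p120-catenin of cell junctions, at 1.27, and Tifa, for an adaptor of NF-kB signalling, at 1.17. Fam78b was at 1.35. Tmem72 was at 1.29, and it shares near-identical sequence with 15 other genes of the table, among them Dhcr7, Dhtkd1 and Gnpnat1. The sum of all, at 1.17, totals genes of other names, so it cannot say whether the value of Tmem72 holds. Of the exon bases of Ctnnd1, 61.2% overlap an unnamed gene on the same strand that the table does not list. Leaving out replicate 1 ended the call of none of these genes with no overlap in the higher direction.

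**Figure D2:**
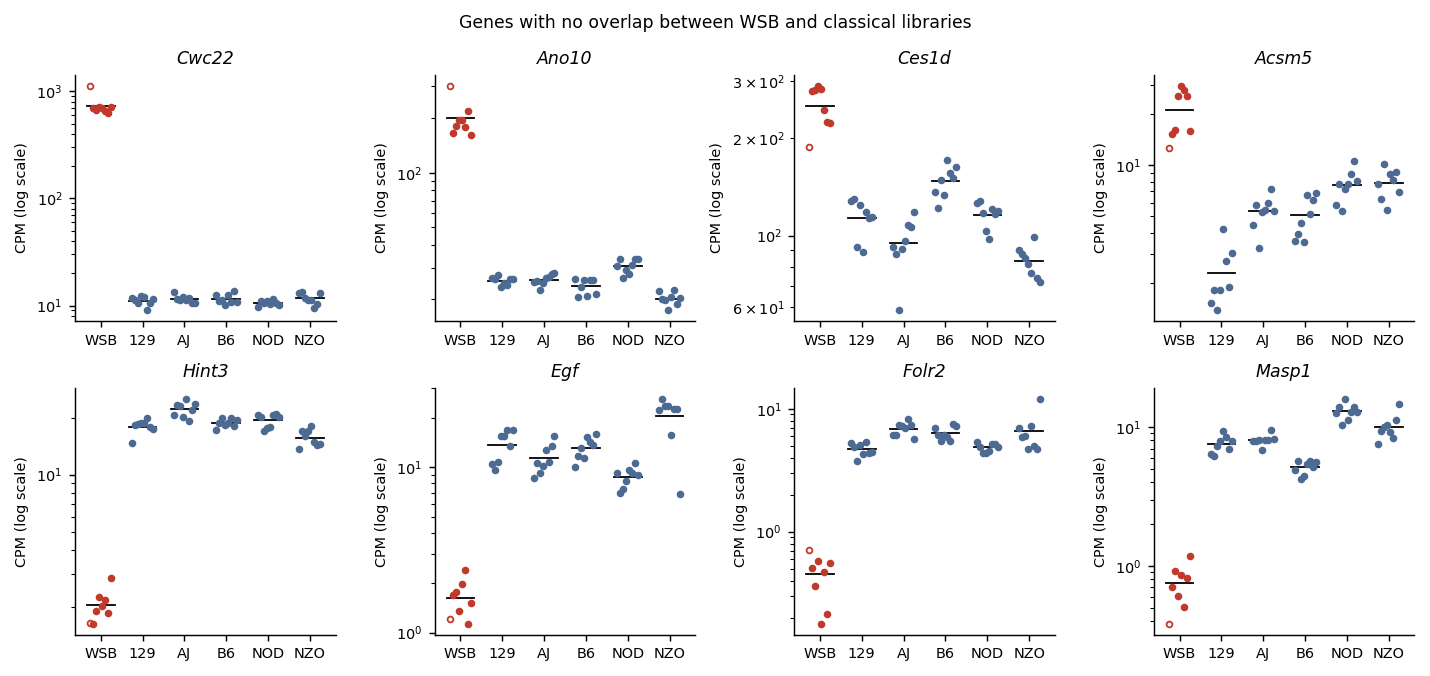
CPM on a log scale (vertical axis) of 8 genes in each library of WSB and of the 5 classical strains (horizontal axis), with a horizontal line at each strain mean and WSB replicate 1 as an open circle. In the upper row (Cwc22, Ano10, Ces1d, Acsm5) every WSB library lies above all 40 classical libraries, and in the lower row (Hint3, Egf, Folr2, Masp1) every WSB library lies below them.

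Some of the largest differences lay in genes with near-identical copies, so each was also summed with its copies. Rpl12 encodes a protein of the large ribosomal subunit. Its lowest, median and highest levels were 98.02, 109 and 204 CPM in WSB libraries, against 4.74, 7.13 and 9.21 CPM in classical libraries, a log2 fold change of 4.07 ± 0.07 (adjusted p = 2.91e-42). The unnamed gene Gm10275 ran the other way, with 0, 0.0532 and 0.358 CPM in WSB libraries and 102, 117 and 165 CPM in classical libraries. Over their 495 coding bases the reference sequences of both genes differ at 0 positions. A stretch of 120 bases, from the GRCm38 transcripts of GENCODE and with no capitals since no base differs, shows that a read from here cannot be placed by sequence:
Rpl12 (chr2:32961559-32965345, plus strand): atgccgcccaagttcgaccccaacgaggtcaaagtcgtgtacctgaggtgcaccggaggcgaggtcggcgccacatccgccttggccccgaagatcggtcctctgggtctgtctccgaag
Gm10275 (chr10:29698746-29699380, minus strand): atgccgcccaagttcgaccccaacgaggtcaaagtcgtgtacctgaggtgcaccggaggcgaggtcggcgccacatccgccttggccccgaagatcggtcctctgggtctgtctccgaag
Summed with the copies Gm10275, Gm7117 and Gm15793, Rpl12 was at 98.1 to 204 CPM in WSB libraries and 109 to 173 CPM in classical libraries. The log2 fold change of the sum was -0.10 (adjusted p = 0.287), and -0.25 (adjusted p = 3.86e-05) without WSB replicate 1. The level of Rpl12 alone is therefore uncertain.

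Ly6c1 and Ly6c2 encode surface antigens of endothelium and monocytes, and Ly6a the related antigen Sca-1. Ly6c1 (chr15:75044018-75048830) had 2 counts in all over the 8 WSB libraries, against 53.5, 65.5 and 141 CPM as the lowest, median and highest classical libraries. The mean classical level was 8051 times the pooled WSB level, with a counting interval of 2229 to 66483 (95%, exact Poisson). Ly6c2 was at 0, 0.198 and 0.413 CPM in WSB libraries and 1.85, 3.25 and 6.44 CPM in classical libraries, with the groups apart. Ly6a went the other way, at 52.1, 71.7 and 234 CPM in WSB libraries and 27.7, 48.6 and 145 CPM in classical libraries, and its groups overlapped. On the log2 scale the fold change was 0.82 ± 0.16 (adjusted p = 3.26e-05), or 0.41 without WSB replicate 1, which held its highest WSB level. A stretch of 120 coding bases (17 to 136, the same in each, chromosome 15, minus strand, GRCm38 transcripts of GENCODE) is the one in which the 3 reference sequences differ least, with the 11 positions that are not shared by all in capitals:
Ly6c1: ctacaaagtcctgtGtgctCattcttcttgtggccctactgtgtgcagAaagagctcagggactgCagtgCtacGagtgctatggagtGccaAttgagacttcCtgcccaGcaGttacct
Ly6c2: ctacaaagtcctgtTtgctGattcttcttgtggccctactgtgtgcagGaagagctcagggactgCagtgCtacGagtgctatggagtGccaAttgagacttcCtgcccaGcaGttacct
Ly6a: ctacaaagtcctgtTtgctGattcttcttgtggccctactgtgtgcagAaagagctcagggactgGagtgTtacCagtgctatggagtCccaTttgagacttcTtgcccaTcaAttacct
Over their 393 coding bases Ly6c1 and Ly6c2 differ at 9 positions. Aligned without gaps, Ly6c1 and Ly6a differ at 156 of these positions, but such an alignment cannot follow an inserted or lost base. With gaps allowed (BLAST), their transcripts align at 95% identity or more over 78% of the shorter one. Summed, Ly6c1 and Ly6c2 were at 0 to 0.468 CPM in WSB libraries and 57.2 to 148 CPM in classical libraries, with a log2 fold change of -8.19 (adjusted p = 8.34e-36), so the pair stayed far lower in WSB. The sum of all 3 was at 52.5 to 235 CPM in WSB libraries and 85.04 to 293 CPM in classical libraries, with a log2 fold change of -0.47 (adjusted p = 0.0116), or -0.87 (adjusted p = 1.15e-08) without WSB replicate 1. Low counts of a gene whose WSB sequence differs from the reference cannot be told apart from low RNA here, and the loss of reads to variants was not tested.

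**Figure D3:**
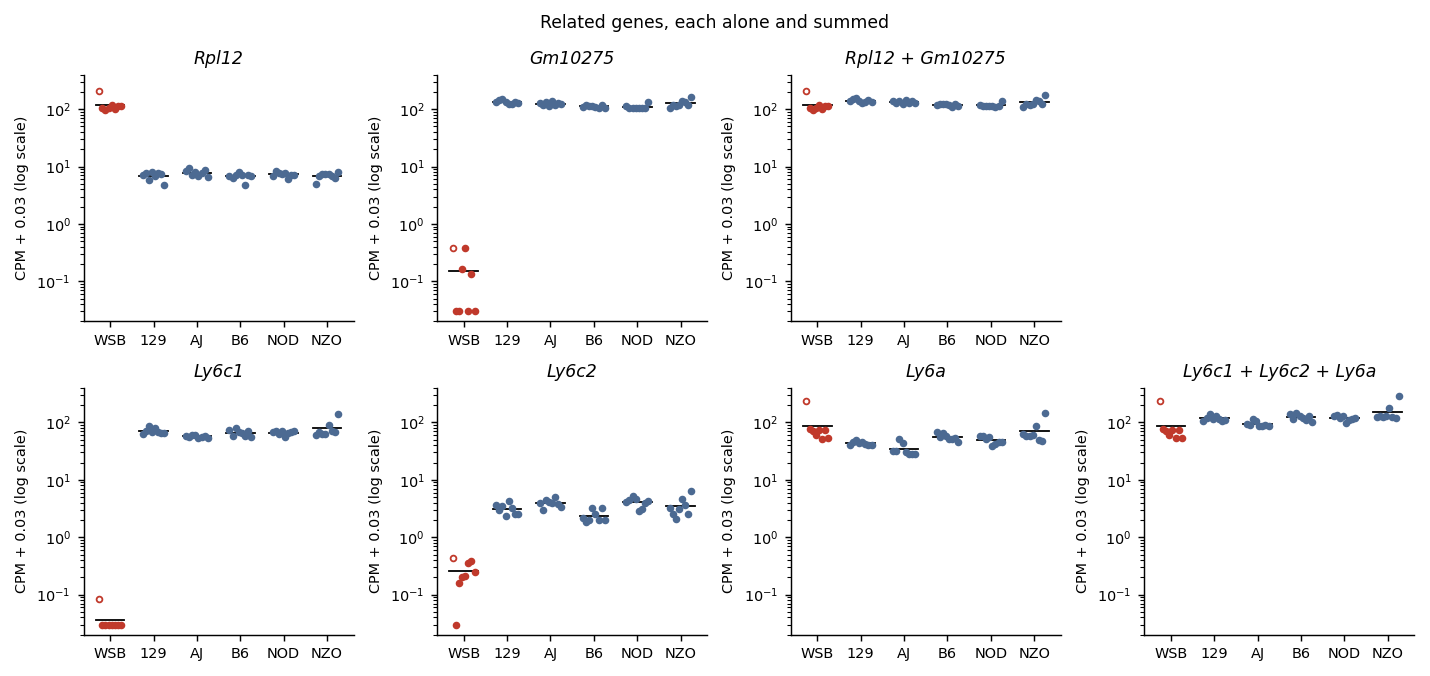
CPM plus 0.03 on a log scale (vertical axis) of related genes, each alone and summed, in each library of WSB and of the 5 classical strains (horizontal axis), with a line at each strain mean and WSB replicate 1 as an open circle. Rpl12 and Gm10275 stand apart between WSB and the classical strains in opposite directions while their sum overlaps, and Ly6c1 is near 0 in WSB while the sum of 3 Ly6 genes overlaps.

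In other copy families too the sum gave another value than a member alone. Hba-a1, an alpha-globin gene, had a log2 fold change of 3.72 alone, and summed with Hba-a2 of -0.64 (adjusted p = 5.90e-04). The complement gene C4a was at 1.82 alone and C4b at -1.86, and their sum at -1.73 (adjusted p = 1.52e-06). H2-T22, a non-classical MHC class I gene, was at 1.36 alone and at -0.11 (adjusted p = 0.512) with H2-T10, and 29.4% of its exon bases overlap a gene on the opposite strand. Whether counting used strand is not given in the sources used here, so reads of such overlaps cannot be told apart. In all 3 families the positive value of the member did not hold for the sum.

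Among genes lower in WSB with no overlap, Ly6c1 and Zfp738 were at or near 0 in WSB. Zfp738, which encodes a zinc-finger protein (chr13:67667437-67687071), had 0 counts in every WSB library, against 4.11, 5.69 and 8.202 CPM as the lowest, median and highest classical libraries. It was at least 48.8-fold lower, with 3 counts per library taken as the floor. Gm26587, which shares sequence with it, was also at 0 in all 8 WSB libraries and at 0.111 to 0.854 CPM in classical libraries.

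Among genes of innate and adaptive immunity, Folr2, Masp1 and Tnfrsf23 were lower. Folr2 encodes folate receptor beta, a marker of tissue-resident macrophages (chr7:101839990-101845331). It had 0.179, 0.491 and 0.715 CPM in WSB libraries, against 3.79, 5.42 and 11.98 CPM in classical libraries, a log2 fold change of -3.66 ± 0.16 (adjusted p = 6.39e-25). The groups did not overlap. Of its exon bases 63.1% overlap Gm10602 on the opposite strand, which did not pass the test (-0.17, adjusted p = 0.425). Masp1 encodes a protease that starts the lectin pathway of complement (chr16:23451785-23520590), and was at 0.385, 0.7602 and 1.18 CPM in WSB libraries and 4.23, 8.11 and 15.9 CPM in classical libraries. The log2 change in WSB was -3.48 ± 0.13 (adjusted p = 3.25e-28). Tnfrsf23, a decoy receptor for TRAIL in the mouse, was at 0.186, 0.3596 and 0.7702 CPM in WSB libraries and 1.76, 3.63 and 7.23 CPM in classical libraries.

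Genes of other roles were also lower without overlap. Hint3, a histidine-triad hydrolase (chr10:30608141-30618479), had 1.65, 1.98 and 2.85 CPM in WSB libraries, against 13.7, 18.7 and 25.01 CPM in classical libraries, and a log2 fold change of -3.18 ± 0.07 (adjusted p = 9.86e-37). The spread within both groups was small beside that gap. Egf encodes the precursor of epidermal growth factor (chr3:129677565-129755316) and was at 1.13, 1.602 and 2.401 CPM in WSB libraries and 6.94, 12.2 and 25.9 CPM in classical libraries, with the highest and the lowest classical library both from NZO. The log2 difference came to -2.997 ± 0.17 (adjusted p = 2.55e-20). Pla2g4e, a cytosolic phospholipase A2, had a log2 fold change of -2.52, Ubxn10, a UBX-domain protein, of -2.61, and Myoc, myocilin, of -3.12. Hint3, Egf, Ubxn10, Folr2, Masp1, Tnfrsf23 and Zfp738 passed the strain-mean test too, while Pla2g4e and Myoc did not.

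Among abundant genes (mean log2 CPM of 7 or more), the largest increases were in Hsp90aa1, Nudt4, Mylk4, Hspb1 and Tgm2. Mylk4, a myosin light-chain kinase of striated muscle, was at 53.1, 318 and 336 CPM in WSB libraries and 71.7, 139 and 271 CPM in classical libraries. The lowest WSB value is that of replicate 1, and the groups overlap. The log2 fold change was 0.93 ± 0.15 (adjusted p = 1.60e-06). Nudt4, an enzyme that breaks down inositol pyrophosphates, was at 0.94, and the crosslinking enzyme gene Tgm2 at 0.71.

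The largest decreases among abundant genes were in Hbb-bt, Acta1, Entpd5, C3 and Hba-a2. Entpd5 encodes a nucleotidase of the endoplasmic reticulum that helps glycoproteins fold. It had 27.9, 70.2 and 105 CPM in WSB libraries, against 139.5, 179 and 248 CPM in classical libraries, with no overlap and a log2 fold change of -1.31 ± 0.11 (adjusted p = 8.35e-15). It was the only one of the 10 abundant genes named here that passed the strain-mean test. Acta1, skeletal alpha-actin, which the adult heart keeps low, was at 125, 211 and 433 CPM in WSB libraries and 92.4, 553 and 3065 CPM in classical libraries, and the groups overlapped. On the log2 scale the fold change was -1.36 ± 0.19 (adjusted p = 6.13e-08).

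Nnt and Glo1, genes with well-known strain differences among the classical lines, were named in any case. Nnt, the mitochondrial transhydrogenase, did not pass the test (-0.04 ± 0.11, adjusted p = 0.798). Without WSB replicate 1, which had 116 CPM, it was higher in WSB (0.11, adjusted p = 0.011). Glo1, glyoxalase, was lower at -0.56, with 46.1, 77.96 and 88.2 CPM in WSB libraries and 68.1, 78.9 and 272 CPM in classical libraries. The medians of WSB and classical libraries were thus close, while the highest classical level was far above both. The groups overlapped.

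Most interferon-induced genes were lower in WSB hearts. Interferons are cytokines that switch on antiviral genes through STAT factors. Of 33 interferon-response genes tested, 1 was higher and 25 lower, with a median log2 fold change of -0.62, beside 0.01 over all tested genes. Without WSB replicate 1, 1 was higher and 28 lower, with a median of -0.75. Their summed level was 299.8 CPM in WSB replicate 1 and 178 to 214 CPM in the other 7 WSB libraries, against 224 to 682 CPM in classical libraries. The other 7 WSB libraries lay below every classical library, and replicate 1 lay within the classical range. No member passed the strain-mean test, and the classical strains themselves ranged widely, with a mean log2 CPM over the members of 1.87 in WSB, 2.13 in 129, 2.32 in NOD, 2.44 in AJ, 2.81 in NZO and 3.12 in B6.

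Gbp3 encodes a guanylate-binding GTPase that acts against intracellular microbes. It had 1.79, 2.32 and 3.38 CPM in WSB libraries, against 4.22, 7.17 and 29.5 CPM in classical libraries, with no overlap and a log2 fold change of -1.83 ± 0.24 (adjusted p = 2.16e-08). Oas3, which makes the antiviral messenger oligoadenylate, was at 0 to 0.248 CPM in WSB libraries and 0.0572 to 1.82 CPM in classical libraries, low in both, with a log2 fold change of -1.79. Tgtp1, an interferon-induced GTPase, was at 0, 0.0182 and 0.193 CPM in WSB libraries and 0.898, 5.04 and 34.6 CPM in classical libraries with no overlap. Summed with its copy Tgtp2 it had a log2 fold change of -2.77 (adjusted p = 1.00e-07). Mx1, an antiviral dynamin-like GTPase, was at -2.93. Mx2 was at 1.55 and at -0.19 with NZO left out of the classical mean, and Mx1 and Mx2 summed to -0.67 (adjusted p = 3.22e-05).

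STAT factors act through a promoter element whose letters many of the interferon genes hold. Stretches of 70 bases upstream of the start are shown for Gbp3 and Oas3, which were lower, and for Ifit1, an antiviral RNA-binding protein gene that was lower too. Sequences are RefSeq's for GRCm38.p6, which is the reference and not WSB, and capitals mark GAAANNGAAA on either strand:
Gbp3 (chr3:142559974-142560043, plus strand): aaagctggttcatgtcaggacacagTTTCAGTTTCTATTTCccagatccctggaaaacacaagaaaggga
Oas3 (chr5:120777685-120777754, minus strand): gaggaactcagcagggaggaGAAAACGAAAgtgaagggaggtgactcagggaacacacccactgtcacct
Ifit1 (chr19:34640765-34640834, plus strand): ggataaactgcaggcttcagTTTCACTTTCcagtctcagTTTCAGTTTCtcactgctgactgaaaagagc
In the 250 bases before the start, GAAANNGAAA was found on either strand in 936 of 27025 promoters (3.46%). It was found in 15 of the 25 list members that have a promoter entry, namely in 10 of the 18 that were lower and in 5 of the 7 that did not pass the test. A match describes the letters only.

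**Figure D4:**
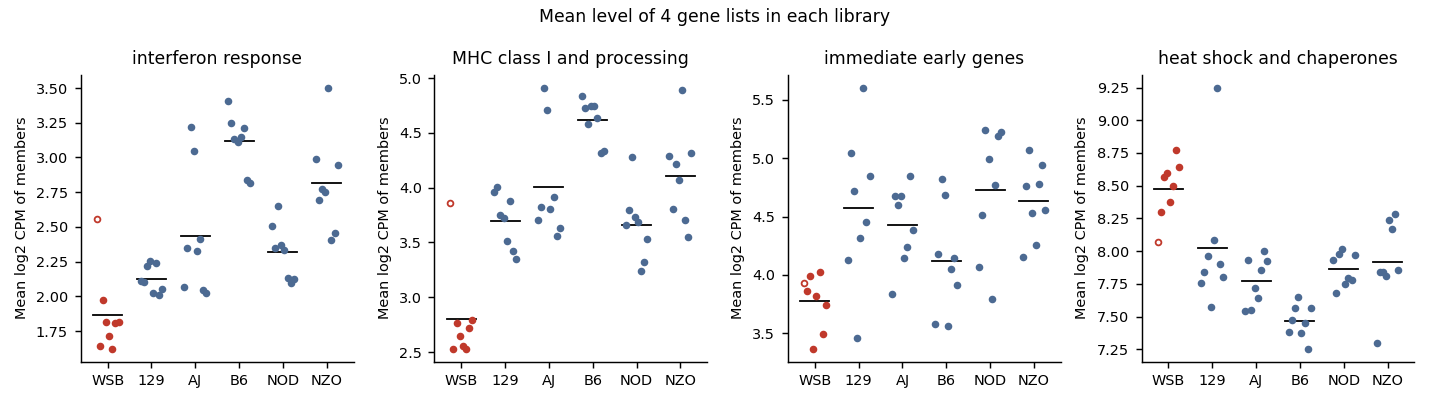
Mean log2 CPM over the tested members of 4 gene lists (vertical axis) in each library of WSB and of the 5 classical strains (horizontal axis), with a line at each strain mean and WSB replicate 1 as an open circle. For interferon response and MHC class I the 7 other WSB libraries lie below all 40 classical libraries and replicate 1 lies among them, immediate early genes are low in WSB with overlap, and heat shock genes are high in WSB with overlap.

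Most antigen presentation genes were lower in the same hearts. MHC class I molecules show peptides from inside the cell to T cells, and class II molecules show peptides that professional presenting cells take up. Of 16 genes of MHC class I and peptide processing, 1 was higher and 14 lower, with a median of -0.80 (-1.09 without WSB replicate 1). H2-D1, a classical class I heavy chain (chr17:35262730-35267499), had 6.26, 6.88 and 25.97 CPM in WSB libraries, against 57.98, 100.4 and 169 CPM in classical libraries, with no overlap and a log2 fold change of -3.42 ± 0.21 (adjusted p = 3.75e-18). H2-K1, the other classical heavy chain of the list, shares sequence with it, and their sum was still lower at -2.16 (adjusted p = 2.74e-12). H2-Q6 of the Qa-2 family was at 0.0728, 0.228 and 0.853 CPM in WSB libraries and 1.25, 5.68 and 22.7 CPM in classical libraries. Its neighbour H2-Q7 had a log2 fold change of -3.23, and the sum of H2-Q5, H2-Q6 and H2-Q7 was at -3.57 (adjusted p = 2.40e-10).

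All 7 class II genes tested were lower, with a median of -1.38. H2-Eb1, the beta chain of the E molecule (chr17:34305877-34316199), was at 0.0993, 0.1900 and 0.431 CPM in WSB libraries and 4.63, 14.4 and 39.8 CPM in classical libraries, with no overlap and a log2 fold change of -6.16 ± 0.41 (adjusted p = 6.67e-17). H2-Ab1, the beta chain of the A molecule, was at 2.86, 3.12 and 6.35 CPM in WSB libraries and 4.11, 12.7 and 31.3 CPM in classical libraries, and its groups overlapped. The log2 change in WSB was -1.74 ± 0.25 (adjusted p = 2.19e-07). Ciita, the master activator of class II transcription, was at -1.41. MHC genes are among the most variable of the genome between strains, and loss of WSB reads to variants was not tested.

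Markers of B cells and macrophages were also lower more often than higher. Of 14 B-cell and plasma-cell genes 0 were higher and 12 lower, with a median of -2.14, and their summed level was 2.47 to 15.2 CPM in WSB libraries and 5.81 to 302 CPM in classical libraries. Cd79b, a subunit of the B-cell receptor, was at 0, 0.1296 and 0.358 CPM in WSB libraries and 0.02997, 0.641 and 7.15 CPM in classical libraries, a log2 fold change of -2.31 ± 0.59 (adjusted p = 0.00126). The groups overlapped, and classical levels spanned a wide range. The immunoglobulin light-chain genes Igkc and Iglc2 were at -2.43 and -2.39. Of 20 macrophage genes 0 were higher and 12 lower, with a median of -0.30; beside Folr2 these included the chemokine gene Ccl8 (-2.28) and the chemokine receptor gene Cx3cr1 (-1.10). Of 8 T-cell and NK-cell genes 3 were lower, Cd4 (-2.66), Cd2 (-1.67) and the interleukin receptor gene Il7r (-1.06). Only these 8 of the 19 genes listed passed the filter on low counts. NOD replicates 5 and 3 stood apart from all other libraries in this list, with a mean log2 CPM of 2.46 and 0.51, against -2.45 to -1.65 in WSB libraries and -2.61 to -0.90 in the other 38 classical libraries. Cd8b1, a T-cell gene, was above 1 CPM in 0 of 8 WSB and 1 of 40 classical libraries, where it reached 14.4 CPM. The thymus genes Rag1 and Dntt are not in the count table. With both NOD libraries left out, 2 of the 8 genes were higher and 3 lower, and the median was -0.34, beside -0.81 with them. B-cell genes were then 0 higher and 12 lower, with a median of -1.84. Of 5 neutrophil genes 2 were higher, the gelatinase gene Mmp9 (1.54) and the G-CSF receptor gene Csf3r (0.55). The neutrophil list holds 11 genes, of which 8 are in the count table and 5 passed the filter on low counts. NZO replicate 8 stood apart from all other libraries in the neutrophil list, with a mean log2 CPM of 4.15. The other classical libraries lay at -2.04 to 0.48 and WSB libraries at -0.77 to 1.14. That NZO library was also the highest of all for macrophage (4.27), complement (5.05) and glucocorticoid-induced genes (6.39). The lists were not refitted without it. In bulk tissue, fewer cells of a type and less RNA per cell cannot be told apart.

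Complement genes were lower more often than higher. Of 19 tested, 2 were higher and 9 lower, with a median of -0.30. C3, on which all complement pathways meet, was at 61.5, 96.6 and 208 CPM in WSB libraries and 159, 239 and 1547 CPM in classical libraries, a log2 fold change of -1.29 ± 0.23 (adjusted p = 1.04e-05). The highest WSB library, replicate 1, lay within the classical range. Cd59a, which protects cells from the membrane attack complex, was higher at 0.69 ± 0.05 (adjusted p = 2.89e-17).

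Most genes of the heat-shock response were higher in WSB hearts. Chaperones of this group keep proteins folded under stress and are switched on by HSF factors. Of 18 tested, 12 were higher and 1 lower, with a median of 0.38, and 14 and 1 without WSB replicate 1. Hsph1, a cochaperone that recharges HSP70 (chr5:149614287-149636376), was at 107, 221 and 317 CPM in WSB libraries and 46.1, 76.6 and 368 CPM in classical libraries. Its groups overlapped, its log2 fold change was 1.37 ± 0.17 (adjusted p = 7.45e-09), and it also passed the strain-mean test. Hsp90aa1, the inducible HSP90, had 544, 604 and 691 CPM in WSB libraries, against 133, 267 and 902 CPM in classical libraries, a log2 fold change of 1.17 ± 0.12 (adjusted p = 2.17e-11). Its highest classical library lay above every WSB library. Hspa1a and Hspa1b, the inducible HSP70 genes and near-identical copies, summed to 132 to 658 CPM in WSB libraries and 8.46 to 1593 CPM in classical libraries, with a log2 fold change of 2.41 (adjusted p = 7.91e-06). By strain, the mean of that sum was 332 CPM in WSB, 245 CPM in 129, 84.6 CPM in NZO, 60.3 CPM in NOD, 53.8 CPM in AJ and 14.3 CPM in B6. In the heat-shock list as a whole, 129 replicate 7 stood apart from its strain. Its mean log2 CPM was 9.25, against 7.57 to 8.09 in the other 129 libraries. The 129 mean of the sum is not given without it. The 1 gene lower was Hspb6 (-0.28), a small heat-shock protein of muscle, while Hspb1, another small one, was higher at 0.76.

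HSF factors bind an inverted repeat in promoters. Stretches of 70 bases are shown for Hspa1b and Hspb1, both higher, and for Hspb6, which was lower (RefSeq, GRCm38.p6), with GAANNTTC in capitals:
Hspa1b (chr17:34959293-34959362, minus strand): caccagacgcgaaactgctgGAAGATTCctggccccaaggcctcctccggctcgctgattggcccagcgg
Hspb1 (chr5:135887782-135887851, plus strand): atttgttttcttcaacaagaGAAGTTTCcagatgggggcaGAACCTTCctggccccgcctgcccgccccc
Hspb6 (chr7:30553161-30553230, plus strand): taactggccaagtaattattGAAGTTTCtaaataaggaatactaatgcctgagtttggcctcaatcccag
GAANNTTC reads the same on both strands and was found in the 250 bases before the start of 2088 of 27025 promoters (7.73%). It was found in 5 of the 8 higher members that have a promoter entry, in the 1 lower member and in 1 of the 5 that did not pass the test.

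Most glucocorticoid-induced genes were higher and most immediate early genes lower. Glucocorticoids are adrenal stress hormones that also follow the time of day. Of 14 such genes 10 were higher and 0 lower, with a median of 0.58, and 7 and 0 without WSB replicate 1. The metallothionein gene Mt2 was at 7.75, 16.7 and 33.9 CPM in WSB libraries and 1.64, 5.53 and 26.6 CPM in classical libraries, a log2 fold change of 1.55 ± 0.26 (adjusted p = 4.82e-06). Angptl4, an inhibitor of lipoprotein lipase that PPAR factors also switch on, was at 1.21, and the cell-cycle inhibitor gene Cdkn1a at 0.88. All 3 overlapped between the groups. Immediate early genes code for transcription factors that respond within minutes to growth signals or handling. Of 20 tested, 0 were higher and 13 lower, with a median of -0.60. Nr4a1, an orphan nuclear receptor, was at 12.97, 28.3 and 47.5 CPM in WSB libraries and 11.1, 82.3 and 142 CPM in classical libraries, a log2 fold change of -1.50 ± 0.28 (adjusted p = 1.73e-05). Fosb, of the AP-1 factor, was at -2.06, and the zinc-finger factor gene Egr3 at -2.03. Their summed level was 439 to 626 CPM in WSB libraries and 437 to 1817 CPM in classical libraries.

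Genes of the circadian clock differed in both directions. Of 18 tested, 5 were higher and 7 lower, beside 24.2% and 21.8% over all tested genes. Per2 (1.07), Cry1 (0.87) and Nfil3 (0.84), for repressors of the loop, were higher. The clock-output factor gene Dbp was at 1.001, 1.403 and 9.297 CPM in WSB libraries and 0.9803, 6.39 and 80.4 CPM in classical libraries, lower at -1.68 ± 0.55 (adjusted p = 0.0111) with wide overlap. The nuclear receptor genes Nr1d1 (-0.86) and Nr1d2 (-0.75) were lower as well. Time of death is not in the labels, so strain and time of day cannot be told apart for clock, glucocorticoid-induced and immediate early genes.

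Genes of fatty acid oxidation differed little, apart from Cpt1a. Of 23 tested, 1 was higher and 6 lower, with a median of -0.09, against 5 higher and 3 lower without WSB replicate 1 (-0.00). Cpt1a, the liver form of the enzyme that lets long-chain fatty acids into mitochondria (chr19:3323301-3385732), had 40.4, 43.6 and 51.05 CPM in WSB libraries, against 54.9, 68.4 and 89.1 CPM in classical libraries. The groups did not overlap, its log2 fold change was -0.61 ± 0.06 (adjusted p = 8.77e-13), and it passed the strain-mean test. Cpt1b, the muscle form and the more abundant in counts, was at -0.22, and Ehhadh, a peroxisomal enzyme, was the 1 gene higher at 0.42.

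In related pathways, Acat1 stood out. Acat1 encodes the mitochondrial thiolase used for ketone bodies and isoleucine (chr9:53580522-53610382). It had 137, 320.1 and 375 CPM in WSB libraries, against 401, 467 and 559 CPM in classical libraries, with no overlap, a log2 fold change of -0.61 ± 0.08 (adjusted p = 7.65e-09) and a pass in the strain-mean test. Of the 18 ketone and branched-chain amino acid genes 2 were higher and 8 lower, with the transaminase gene Bcat2 (-0.48) and the dehydrogenase subunit gene Bckdha (-0.48) lower and Hibch of valine breakdown higher (0.40). Among 20 genes of lipid uptake and droplets 4 were higher and 7 lower, beside 24.2% and 21.8% over all tested genes. The lipase inhibitor gene G0s2 (-0.91) and the droplet coat gene Plin2 (-0.41) were lower, while Plin4 was higher (0.32). Among 14 lipogenesis genes the desaturase gene Scd1 (-1.59) and the fatty acid synthase gene Fasn (-0.99) were lower and 3 were higher. Scd1 ranged over 16.5 to 848 CPM among classical libraries. Of 16 PPAR-alpha targets 3 were higher and 4 lower, and of 15 cholesterol synthesis genes 3 were higher, led by Insig1 (0.52), and 1 was lower. Without WSB replicate 1, PPAR-alpha targets were 2 higher and 4 lower, and cholesterol synthesis genes 3 higher and 0 lower.

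Glycolysis and insulin-pathway genes had members in both directions, beside 24.2% higher and 21.8% lower over all tested genes. Of 24 genes of glucose uptake and glycolysis 9 were higher and 4 lower (9 and 6 without WSB replicate 1). The phosphofructokinase genes differed in direction, with Pfkp at 0.56 and Pfkl at 0.35, both higher, and the muscle form Pfkm lower at -0.28 (-0.17 without WSB replicate 1). Pygb, brain-type glycogen phosphorylase, was lower with 79.9, 404 and 427 CPM in WSB libraries and 170.1, 759 and 1084 CPM in classical libraries, a log2 fold change of -0.75 ± 0.12 (adjusted p = 5.08e-07). Of 22 insulin and IGF genes 8 were higher and 4 lower (10 and 3 without replicate 1). Irs1, the docking protein of the insulin receptor, was at 13.3, 122 and 192 CPM in WSB libraries and 32.2, 51.9 and 85.2 CPM in classical libraries, a log2 fold change of 1.13 ± 0.16 (adjusted p = 1.44e-07). Its lowest WSB value was replicate 1, and 30.9% of its exon bases overlap Gm9747 on the opposite strand, which was higher too (1.02). Grb14, an adaptor that inhibits the insulin receptor (chr2:64912476-65024987), had 39.4, 82.2 and 101 CPM in WSB libraries, against 103, 138 and 163 CPM in classical libraries, with no overlap and a log2 fold change of -0.80 ± 0.08 (adjusted p = 7.40e-12). Irs2 was at -0.67 and not called without replicate 1 (-0.54, adjusted p = 0.101), and Foxo1, a transcription factor held back by insulin, was higher at 0.41.

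Mitochondrial genes gave results that replicate 1 moved. Of 40 nuclear genes of the respiratory chain 18 were higher and 3 lower, with a median of 0.15, but 5 and 5 without WSB replicate 1, with a median of 0.02. The complex I genes Ndufa1 and Ndufa2, both at 0.35, were at 0.08 and 0.00 without it and no longer called. Of the 13 protein-coding genes of the mitochondrial genome 0 were higher and 6 lower, and 0 and 9 without replicate 1. Their mean log2 CPM was 12.88 in WSB, against 12.64 in NOD, 12.95 in AJ, 12.95 in NZO, 13.36 in 129 and 13.50 in B6. WSB thus lay within the range of the classical strains, above NOD, near AJ and NZO and below 129 and B6. The complex I subunit gene mt-Nd4 had 15703, 18554 and 22285 CPM in WSB libraries, against 15732, 24647 and 35558 CPM in classical libraries, a log2 fold change of -0.35 ± 0.07 (adjusted p = 2.22e-05), and the groups overlapped. Of 25 TCA-cycle genes 1 was higher, the succinyl-CoA ligase gene Suclg2 (0.32), and 3 lower, against 6 and 2 without replicate 1.

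Detoxification genes were more often higher than lower, and those against oxidants were called in both directions. Of 17 xenobiotic metabolism genes 9 were higher and 2 lower, with a median of 0.29 (0.13 without WSB replicate 1). Beside Ces1d and Cyp2d22, Fmo2, a flavin monooxygenase, was at 72.2, 111 and 182 CPM in WSB libraries and 32.7, 48.1 and 89.4 CPM in classical libraries, a log2 fold change of 1.20 ± 0.11 (adjusted p = 8.92e-13), and passed the strain-mean test although the groups overlapped. Of 35 genes of oxidative stress and glutathione 9 were higher and 13 lower (10 and 10 without replicate 1). Over all tested genes 24.2% were higher and 21.8% lower, or 23.3% and 23.5% without replicate 1. Gstt1, a glutathione transferase (chr10:75783813-75798584), was at 1.24, 1.47 and 5.25 CPM in WSB libraries and 5.83, 8.69 and 10.4 CPM in classical libraries, with no overlap. The log2 difference came to -1.97 ± 0.14 (adjusted p = 1.75e-16), and it passed the strain-mean test. Nqo1, a quinone reductase that NRF2 switches on (chr8:107388225-107403206), had 10.7, 19.1 and 22.05 CPM in WSB libraries, against 28.5, 38.9 and 49.95 CPM in classical libraries, with no overlap and a log2 fold change of -1.09 ± 0.07 (adjusted p = 1.10e-17). Gsta3 was higher at 0.94, or 0.63 without replicate 1.

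Among genes of cardiac stress more were lower than higher in WSB. Stressed hearts turn genes of the fetal program back on, among them Acta1 and Myh7. Of 19 tested, 1 was higher and 10 lower, with a median of -0.30. The mean log2 CPM of the list was 5.26 in WSB, against 5.32 in B6, 5.51 in 129, 5.88 in NOD, 5.98 in AJ and 6.09 in NZO. WSB thus lay near B6 and further below NOD, AJ and NZO. The summed level was 3817 to 5087 CPM in WSB libraries and 4142 to 11844 CPM in classical libraries, so the groups overlapped. Postn, a matrix protein of activated fibroblasts (chr3:54361109-54391037), had 15.3, 18.2 and 24.3 CPM in WSB libraries, against 32.5, 51.5 and 86.2 CPM in classical libraries, with no overlap and a log2 fold change of -1.44 ± 0.09 (adjusted p = 4.68e-18). Myh7, the slow myosin heavy chain, was at -0.78 alone. Its sum with the near-identical and far more abundant Myh6 is nearly all Myh6, and was at 0.00 (adjusted p = 0.987), or 0.11 (adjusted p = 0.00376) without WSB replicate 1. Spp1, osteopontin, was at 0.0357, 0.242 and 1.06 CPM in WSB libraries and 0.478, 0.853 and 8.15 CPM in classical libraries, lower at -1.84 and past the strain-mean test.

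Among genes of the contractile apparatus, differences were mostly within a log2 unit. Of 22 sarcomere genes 4 were higher and 7 lower, beside 24.2% and 21.8% over all tested genes. Csrp3, the muscle LIM protein of the Z-disc (chr7:48830398-48848033), had 441, 468 and 482 CPM in WSB libraries, against 553, 698 and 891 CPM in classical libraries, with no overlap. The log2 fold change was -0.60 ± 0.05 (adjusted p = 7.70e-15), and its spread within WSB was narrow. The cardiac actin gene Actc1 was higher at 0.38, and Myom2 of the M-band lower at -0.57. The higher calls of Nexn (0.37) and Tnnc1 (0.20) ended without WSB replicate 1 (0.02 and 0.07). Of 17 intercalated disc genes 0 were higher and 9 lower, led by Lrrc10 (-0.67), Xirp2 (-0.51) and Dsp, desmoplakin (-0.49, or -0.31 without replicate 1). The summed level of this list was 1669 CPM in replicate 1, 4961 to 5651 CPM in the other 7 WSB libraries and 5216 to 7575 CPM in classical libraries.

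Genes of calcium handling and ion channels were called about as often as all tested genes (24.2% higher and 21.8% lower), in both directions. Casq2, the cardiac calcium store protein of the sarcoplasmic reticulum (chr3:102086415-102146514), had 385, 1217 and 1316 CPM in WSB libraries, against 613, 735 and 907 CPM in classical libraries. Replicate 1, at 385 CPM, lay below every classical library and the other 7 WSB libraries lay above all of them. The log2 fold change was 0.62 ± 0.08 (adjusted p = 2.70e-08). Cacna1c, the L-type calcium channel, was higher at 0.45 ± 0.04 (adjusted p = 1.01e-14). In all, 3 of the 20 calcium handling genes were higher and 6 lower (5 and 7 without replicate 1), with S100a1 (0.21) not called without replicate 1 (0.00). Of 24 ion channel genes 6 were higher and 5 lower. The inward rectifier gene Kcnj2 was higher at 0.66, and the related Kcnj14 (-1.74) and the atrial Kcnj3 (-0.67) were lower. Scn4b, a sodium channel subunit, was at 0.43, but at -0.52 with 129 left out of the classical mean, and classical libraries ranged over 2.12 to 172 CPM. Of 19 genes of adrenergic, endothelin and angiotensin signalling 9 were higher and 1 lower (11 and 3 without replicate 1), led by angiotensinogen, Agt (0.78), the endothelin receptor gene Ednra (0.63) and the receptor kinase gene Grk5 (0.53).

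Atrial genes were called in the lower direction only. Of 11 tested, 0 were higher and 6 lower, with a median of -0.30. Mybphl was at -0.96, Myl4, the atrial light chain, at -0.65, and Sln, sarcolipin, at -0.54. Their summed level was 1590.1 to 3123 CPM in WSB libraries and 1406 to 4259 CPM in classical libraries, so the groups overlapped. How much atrium each sample held was not tested.

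Markers of fat, blood and stroma moved as well, and WSB replicate 1 often stood apart. Of 14 adipocyte and brown fat genes 2 were higher and 8 lower, with a median of -1.01, and without replicate 1 0 and 9, with a median of -1.78. Ucp1, the uncoupling protein of brown fat, had 2 counts in all over the 8 WSB libraries, against 0, 3.87 and 22.6 CPM as the lowest, median and highest classical libraries. Lep, leptin, had 3 counts in all over the WSB libraries, against 0, 0.278 and 1.71 CPM in classical libraries. The classical means were 658 times (95% counting interval 182 to 5432) and 38.1 times (13.02 to 185) the pooled WSB levels, and both groups held libraries at 0. Plin1, the coat of the fat cell's droplet, was at 0.0709, 0.441 and 2.45 CPM in WSB libraries and 0.358, 4.11 and 16.7 CPM in classical libraries, and the log2 fold change was -2.73 ± 0.55 (adjusted p = 7.79e-05). Of 10 red cell genes 1 was higher, Hba-a1, and 8 lower, and their sum was 4054 CPM in replicate 1, 1194 to 2054 CPM in the other 7 WSB libraries and 1497 to 5968 CPM in classical libraries. The mean log2 CPM of the list was 4.72 in WSB, against 4.47 in 129, 4.79 in B6, 4.89 in AJ, 6.04 in NOD and 6.15 in NZO, so WSB lay within the range of 129, B6 and AJ and below NOD and NZO. The globin pair Hbb-bt and Hbb-bs summed to a log2 fold change of -0.69 (adjusted p = 3.60e-04), and the band 3 gene Slc4a1 was at -1.75.

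Fewer endothelial genes were called higher without replicate 1. Of 25 tested, 15 were higher and 2 lower, with a median of 0.26, and 8 and 3 without it (0.13). Their summed level was 4447 CPM in replicate 1, 2013 to 2513 CPM in the other 7 WSB libraries and 1892 to 2772 CPM in classical libraries. Rgcc (0.59) and Sox17 (0.56) were not called without it. Rgs5, a pericyte gene, was higher at 0.41 ± 0.04 (adjusted p = 5.17e-11) among 14 smooth muscle and pericyte genes, of which 5 were higher and 2 lower, with Acta2 at -0.57. Of 16 fibroblast genes 1, Gsn (0.37), was higher and 6 were lower, among them Lum (-0.79), Wif1 (-0.90) and Pi16 (-0.78). Of 32 extracellular matrix genes 10 were higher and 7 lower, beside 24.2% and 21.8% over all tested genes. The collagen-crosslinking enzyme gene Lox was at 7.65, 11.3 and 13.7 CPM in WSB libraries and 2.48, 5.54 and 9.75 CPM in classical libraries, higher at 1.06 ± 0.12 (adjusted p = 2.10e-10), while fibronectin, Fn1, was lower at -0.75.

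**Figure D5:**
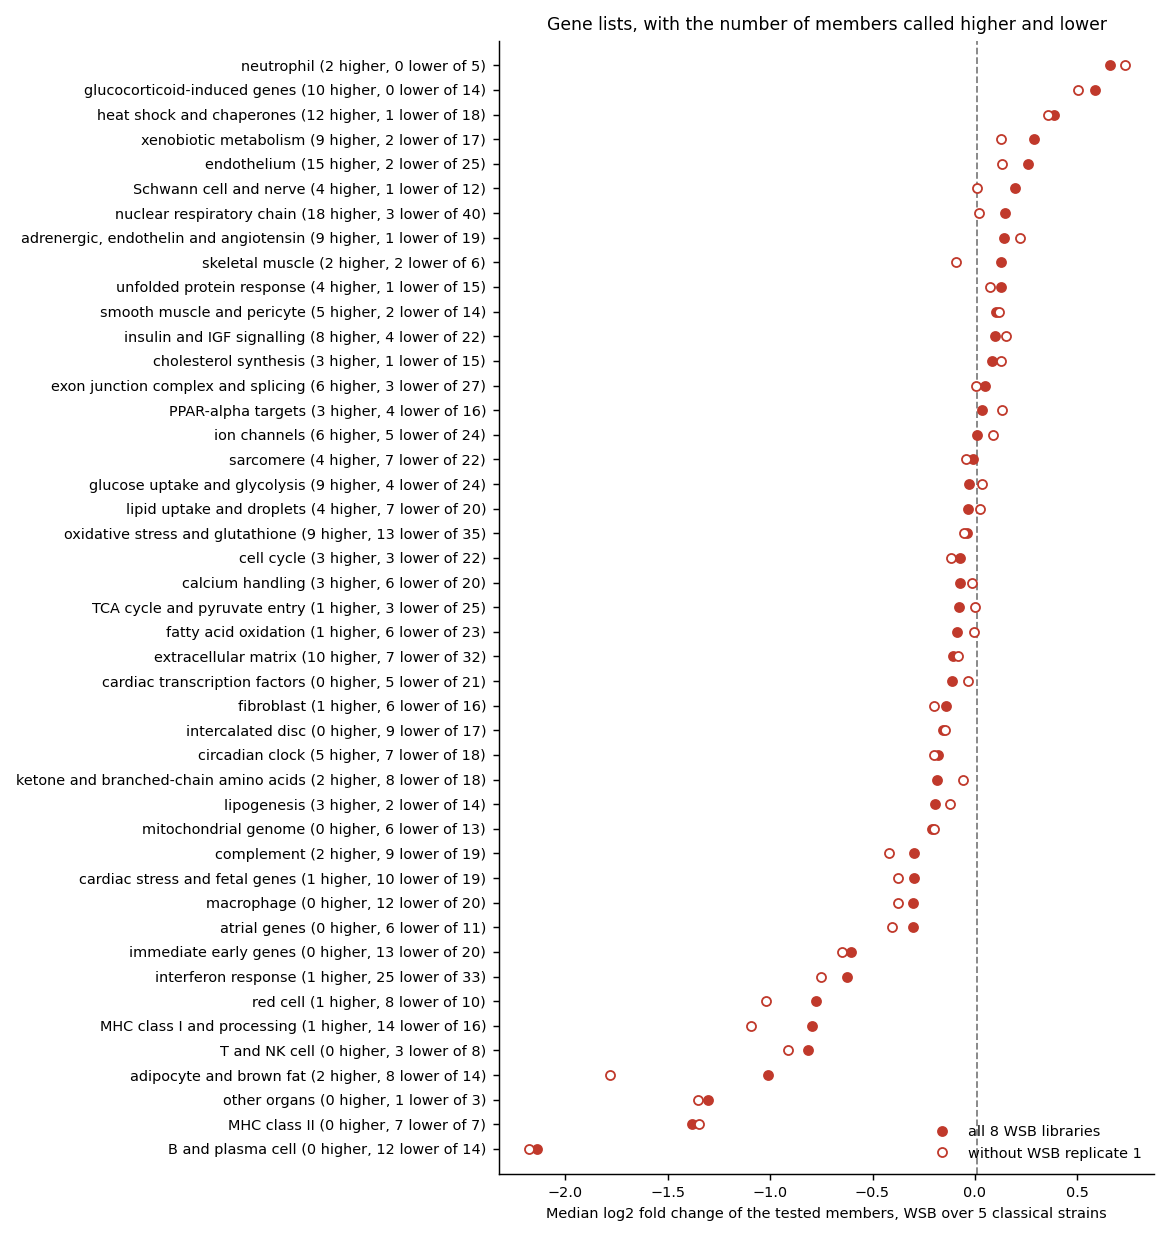
Median log2 fold change, WSB over the mean of 5 classical strains (horizontal axis), of the tested members of 45 gene lists (vertical axis, with the number called higher and lower), with all 8 WSB libraries (filled) and without replicate 1 (open), and a dashed line at 0.01, the median over all tested genes. The B-cell list lies lowest at -2.14, the neutrophil list of 5 genes highest at 0.66, and the adipocyte list is the one with the widest gap between its filled and open points.

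The remaining lists had medians between -1.30 and 0.20. Of 15 genes of the unfolded protein response 4 were higher, led by Sdf2l1 (0.53), and 1 lower, Atf3 (-0.93). Of 22 cell cycle genes 3 were higher and 3 lower, with the thymidylate synthase gene Tyms at 0.76 and the securin gene Pttg1 at -1.75. Of 21 cardiac transcription factor genes 0 were higher and 5 lower (3 and 4 without WSB replicate 1), Irx3 (-0.34) with the largest change. Of 12 Schwann cell and nerve genes 4 were higher, among them the glial transcription factor gene Sox10 (0.45, or 0.28 and not called without replicate 1), and 1 lower, Uchl1 (-0.57). Without replicate 1 these counts were 2 and 3. Of 6 skeletal muscle genes 2 were higher, Actn3 (1.02) and Ckm (0.25), and 2 lower, Atp2a1 (-1.69) and Mybpc2 (-1.57). Mybpc2 had 5.58, 9.64 and 12.4 CPM in WSB libraries, against 14.5, 29.6 and 53.4 CPM in classical libraries, with no overlap. Of 3 genes of other organs 1 was lower, Cela1 (-0.61), which was not called without replicate 1.

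Genes with no overlap lay close together at 15 places in the genome, where at least 3 of them followed with no more than 1 Mb from each to the next. The stretch with the most was chr2:175422300-177905784, where 26 of 30 tested genes were called and 9 unnamed genes, all lower, did not overlap. The MHC stretch chr17:34305877-35430055 held H2-Eb1, C4b, H2-D1 and H2-Q6, all lower, and 1 unnamed gene that was higher, with 30 of 54 tested genes called. At chr9:121760033-123862029, Ano10 and Tmem158 (2.37) were higher, and Zfp651 (-0.43), the muscle gene Klhl40 (-1.89) and the chemokine receptor gene Xcr1 (-2.20) were lower, with 17 of 32 called. At chr11:120103960-121204711, Arl16 (1.07) was higher and Slc38a10 (-0.28) and Ogfod3 (-0.46) lower, with 21 of 47 called. At chr19:10857822-10909559, Tmem132a (0.65) was higher and Tmem109 (-0.38) and the splicing factor gene Prpf19 (-0.60) were lower, with 3 of 4 called. The 3 called there are these same genes. The counts called include the genes with no overlap that define each stretch, so these shares are raised by that choice. Over all tested genes 46.1% were called in either direction, and 17 of 32 and 21 of 47 are near that share even with those genes counted. With no overlap, 0.702% of all tested genes were higher and 1.18% lower. The direction differed between neighbours in 4 of these 5 stretches.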

How the data were processed

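Per the labels, heart RNA was extracted from frozen, pulverised tissue, ERCC spike-in RNA was added, and polyA RNA was sequenced. The table deposited by the authors holds expected counts per gene, not normalised, on GRCm38 per the submitters' processing notes, and 18.4% of its values are not whole (tolerance 1e-06). A second deposited table holds variance-stabilised log2 values, which the authors made with DESeq2 per the submitters' processing notes, and it served as an alternative only. Aligner, counter and strand use: not given in the sources used here.

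Counts were rounded. In R 4.3.3, edgeR 4.0.16 (filterByExpr with a minimum count of 10, TMM, robust glmQLFit and glmQLFTest) fitted 1 coefficient per strain over 48 libraries, leaving 42 residual degrees of freedom, and tested WSB against the unweighted mean of 5 classical strains. Fold changes average strains on the log scale. Limma 3.58.1 (trend, robust) tested the mean log2 CPM of each strain (prior count 2). P-values are Benjamini-Hochberg adjusted over all tested genes, with a threshold of 0.05. Intervals and floors cover counting error only. Copies are genes with transcripts aligned by BLAST 2.17.0 at 95% identity or more over at least 50% of the shorter one (GENCODE M21), and their counts were summed and refitted. The procedure was run on simulated counts in which the 5 classical strains shared the same means and no library stood apart. That run cannot test the strain-mean fit at the real spread between strains, or the effect of a library such as WSB replicate 1.

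The named genes are the 15 largest changes per direction with no overlap and a mean log2 CPM of 1 or more, the 5 largest per direction at a mean of 7 or more, up to 3 per direction of each of 45 lists (784 genes tested), and Cwc22, Nnt and Glo1. Symbols such as Gm with digits were counted and named only as copies or neighbours, and 7 higher and 9 lower ones stood above the last named gene. Genes of 5 stretches of the genome were named too. Results for a few of these genes are left out. The genes, lists and tests were chosen with earlier results of these data known. Alternatives were other scalings, filters, tests and covariates, leaving out libraries or strains, and summing copies. DESeq2 1.42.0 served for an alternative test.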

Additional observations from a re-analysis of the deposited data

Results flagged for a closer look

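In 16 of the 41 genes examined, 1 WSB library lay apart from the other 7 by more than Dixon's 95% critical value for 8 samples (0.526), and in 15 of these it was WSB replicate 1. Chance flags about 1 in 20 groups (5%). Replicate 1 was the highest WSB library for Cwc22 (1126 CPM), Rpl12 (204 CPM), Ano10 (302 CPM), Cit (33.7 CPM), Wscd1 (31.3 CPM), Cyp2d22 (55.2 CPM), Ly6c1 (0.0550 CPM), H2-D1 (26.0 CPM), Hbb-bt (159 CPM), C3 (208 CPM) and Hba-a2 (1196 CPM). It was the lowest for Nudt4 (271 CPM), Mylk4 (53.1 CPM), Nnt (116 CPM) and Glo1 (46.1 CPM). WSB replicate 7 was the highest for Acta1, at 433 CPM.

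Among measures of whole libraries (18 strain groups examined), the TMM factor of WSB replicate 1 was 1.18 and that of NZO replicate 8 was 1.09, each the highest of its strain and apart from the others. The total count of AJ replicate 1, 42.9 M, was apart from the other AJ libraries. The cause was not tested for any of these.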

How the results depend on the processing

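The numbers of genes called by edgeR stayed within 1.5 times the reported 3868 higher and 3480 lower under all 25 alternatives run, of which 1, leaving out NOD replicates 3 and 5, was chosen after seeing the data (3854 higher and 3486 lower, with the direction and call of all 218 named genes kept). Leaving out each WSB library gave 3733 to 3864 higher and 3293 to 3762 lower, leaving out a classical strain 3489 to 3917 and 3176 to 3398, and the other settings 3179 to 3943 and 2731 to 3861. The share of calls that were higher ran from 46.7% (limma-trend on log2 CPM) to 54.0% (all 63 libraries), beside 52.6%. Each library was also taken as its deviation in log2 CPM from the mean of its own strain, gene by gene. Such deviations of same-numbered libraries of different strains correlated at -0.10 to 0.38, with a median of 0.06 over 111 pairs. Of these pairs 34 were above 0.1. For the same deviations, the median over 849 pairs of different number was -0.01, and 11 of 48 libraries correlated best with their own number. No label says what the numbers mark, and the source of this was not tested. A fit with a replicate block gave 3664 higher and 3540 lower.

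Strain-mean calls depended on the strains: leaving out 129, AJ, B6, NOD or NZO gave 28, 24, 21, 25 or 26 genes higher, and leaving out AJ, B6 or NOD gave 46, 52 or 59 lower. These fits have fewer strains. Genes higher with no overlap were 202 without WSB replicate 1, beside 112.

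Of 218 named genes, 195 kept direction and call without WSB replicate 1, 22 lost the call, and the log2 fold change of Nnt turned to 0.11 (leaving out each WSB library in turn, -0.085 to 0.11). Scn4b turned to -0.52 with 129 left out and Mx2 to -0.19 with NZO left out. Summed with copies, 7 of 29 genes turned: C4a (-1.73), H2-T22 (-0.11), Hba-a1 (-0.64), Ly6a (-0.43, with Ly6c1), Mx2 (-0.67), Myh7 (0.00174, nearly all Myh6) and Rpl12 (-0.10). The causes were not tested beyond the construction of each sum. With Xist as a covariate, 217 of the 218 kept direction and call.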
